A study of Mus musculus with 12 samples.

Results

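The genes described here are the endothelin-converting enzymes and a set of receptors and surface proteins best known from blood vessel endothelium: Ece1, Ece2, Flt1, Kdr, Flt4, Tie1, Tek, Pecam1 and the ligand gene Vegfa. They were matched by gene symbol in mouse oocytes with and without Lsm14b, which encodes an RNA-binding protein of cytoplasmic ribonucleoprotein granules. Of the 9 genes, 6 had values, out of 23210 genes with a value at either stage. All 6 had values at metaphase II (MII, the mature egg) and 4 of them, Ece1, Flt1, Kdr and Tie1, also at the germinal vesicle stage (GV, before maturation). Ece2, Flt4 and Vegfa were not analysed here. The GV table held 3475 genes, all marked by the authors as different between genotypes, so a gene without a GV value was not selected there and nothing is known here of its GV level. These genes were chosen by name from vascular biology and by their measured differences between knockout and control at both stages. Their differences are therefore given as a description, with no p-value, and the pattern that some of them are lower in the knockout supports nothing further.

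Each library was made from a tube of 15 oocytes collected from ovaries of C57BL/6 mice at postnatal day 35. Control libraries (WT) had the genotype Lsm14bfl/fl, and conditional knockout libraries (CKO) had the genotype Lsm14bfl/fl-Gdf9-Cre, so both carried the floxed alleles. Gdf9-Cre is expressed in oocytes from early follicle stages on, and other cells of the ovary keep Lsm14b in this model. There were 4 groups of 3 libraries, WT and CKO at GV (replicates 1, 2 and 4 in both), WT at MII (replicates 1, 2 and 3) and CKO at MII (replicates 2, 3 and 4). The series describes the replicates of a group as biological.

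Endothelin-converting enzyme is a membrane metalloprotease that cuts the inactive precursor big endothelin into endothelin, a peptide that acts on G protein-coupled receptors of vessel and other cells. Vascular endothelial growth factors bind the receptor tyrosine kinases FLT1 and KDR on blood vessels and FLT4 on lymphatic vessels, and angiopoietins bind the receptor TEK, with TIE1 as its partner. In the ovary these proteins are known from the capillaries of the follicle wall and corpus luteum, which do not enter the oocyte.

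Depth and the likeness of libraries to each other varied at MII. The 3 WT libraries at MII held 88494525 to 124872889 reads and the 3 CKO libraries 23077585 to 40530314, so depth and genotype went together. WT replicate 3 stood apart at MII. Its Spearman rho across genes was 0.847 to 0.877 against any other library, where all pairs of those 5 had a rho of 0.899 to 0.94. Lsm14b itself was at 6.26% of the WT mean in CKO at GV and at 8.22% at MII. All 12 oocyte markers, among them the zona pellucida genes Zp1, Zp2 and Zp3 and the growth factor genes Gdf9 and Bmp15, had values at MII, with a sum of 926601 to 1005040 normalized counts per WT library and 1095320 to 1317310 per CKO library. None was called by limma or limma-voom. By limma 4 of the 12 had an unadjusted p under 0.05, beside 3259 of all 20388 genes tested. Zp3 (higher) and Bmp15 (lower) were the 2 with an adjusted p under 0.05 in the authors' deposited table. There 6.45% of genes were more than 2-fold lower at that threshold. In 4 of the 12 (Zp2, Zp3, Nlrp5 and Padi6) every CKO library lay above every WT library, beside 10.4% of all tested genes. In 1, Bmp15, every CKO library lay below, beside 12.0%. The median log2 difference of the 12 was 0.55, beside -0.11 over all genes. The values are normalized read counts in a fixed number of oocytes per tube. They are levels relative to the rest of a library, and a change in total RNA per oocyte was not measured. In such pools, less of a transcript in every cell cannot be told apart from fewer cells that hold it.

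Ece1 was far lower in CKO at both stages. At GV its normalized count was 7896, 6966 and 7693 in WT replicates 1, 2 and 4, and 355, 314 and 361 in CKO replicates 1, 2 and 4. The lowest WT library thus lay far above the highest CKO library, and the CKO mean was 4.57% of the WT mean (7518 ± 489 against 343 ± 25.2, SD, n = 3 each). At MII Ece1 was at 3427, 2804 and 1574 in WT replicates 1, 2 and 3, and at 211, 248 and 225 in CKO replicates 2, 3 and 4. The CKO libraries lay close together, WT replicate 3 was the lowest of the controls, and the CKO mean was 8.75% of the WT mean (2602 ± 943 against 228 ± 18.9, SD, n = 3 each). By limma this was a log2 difference of -3.44 (SE 0.41), and of -3.76 without WT replicate 3. The authors' deposited table gave a log2 fold change of -4.45 (SE 0.14) for Ece1 at GV. The GV and MII tables were normalized separately, so the levels at the 2 stages are set side by side and were not compared.

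Flt1 encodes a receptor for vascular endothelial growth factor A that also exists as a secreted form without the kinase. At GV it was at 1145, 1432 and 661 normalized counts in WT replicates 1, 2 and 4, and at 75.9, 24.8 and 40.1 in CKO replicates 1, 2 and 4. No CKO library came near the lowest WT library, and the CKO mean was 4.35% of the WT mean (1079 ± 390 against 46.9 ± 26.3, SD, n = 3 each). At MII it was at 368, 449 and 877 in WT replicates 1, 2 and 3, and at 20.7, 7.60 and 5.51 in CKO replicates 2, 3 and 4. These CKO values rest on 15, 3 and 4 reads, so little Flt1 signal was left in any CKO library, and the CKO mean was 1.99% of the WT mean (565 ± 274 against 11.3 ± 8.21, SD, n = 3 each). WT replicate 3, the lowest control for Ece1, was the highest for Flt1. The limma log2 difference was -5.63 (SE 0.87), and -5.26 without WT replicate 3.

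Kdr encodes the main signalling receptor for vascular endothelial growth factor A in endothelium, and its transcript was scarce in these oocytes. At GV its normalized count was 287, 221 and 130 in WT replicates 1, 2 and 4, from 329, 162 and 105 reads, and 0 in every CKO library. Set against a floor of 3 reads per CKO library, it was at least 82.4-fold lower in CKO at GV. At MII it was at 114, 178 and 124 in WT replicates 1, 2 and 3, at 64.7 in CKO replicate 2 from 47 reads, and at 0 in CKO replicates 3 and 4. The groups did not overlap, but the CKO libraries disagreed among themselves, and CKO replicate 2 alone held all of the CKO signal. The limma log2 difference of -5.09 (SE 1.69) went to -7.10 without CKO replicate 2 and to -4.08 without either of the other CKO libraries. With a pseudocount of 0.1 in place of 1 it was -7.30, so its size is not well fixed.

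Tie1, an orphan receptor that modulates the angiopoietin receptor TEK, was lower in CKO to a smaller extent. At GV it was at 1563, 704 and 1602 normalized counts in WT replicates 1, 2 and 4, and at 294, 127 and 372 in CKO replicates 1, 2 and 4. The groups did not overlap, replicate 2 was the lowest in both, and the CKO mean was 20.5% of the WT mean (1290 ± 508 against 264 ± 125, SD, n = 3 each). At MII it was at 703, 446 and 695 in WT replicates 1, 2 and 3, and at 297, 160 and 158 in CKO replicates 2, 3 and 4. Again no CKO library reached the lowest WT library, and the CKO mean was 33.4% of the WT mean (615 ± 146 against 205 ± 79.9, SD, n = 3 each). The limma log2 difference was -1.61 (SE 0.49).

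Tek and Pecam1 did not share this pattern at MII. Tek, the angiopoietin receptor, was at 667, 488 and 627 normalized counts in WT replicates 1, 2 and 3, and at 775, 975 and 707 in CKO replicates 2, 3 and 4. Every CKO library thus lay above every WT library, by a small margin, with a limma log2 difference of 0.46 (SE 0.37). Pecam1, an adhesion molecule of endothelium, platelets and leukocytes, was at 3422, 4060 and 2841 in WT and at 4198, 3998 and 3771 in CKO, in the same order of replicates. The groups overlapped, with means of 3441 ± 610 and 3989 ± 213 (SD, n = 3 each) and a log2 difference of 0.23 (SE 0.28). Neither gene was among those selected at GV.

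**Figure D1:**
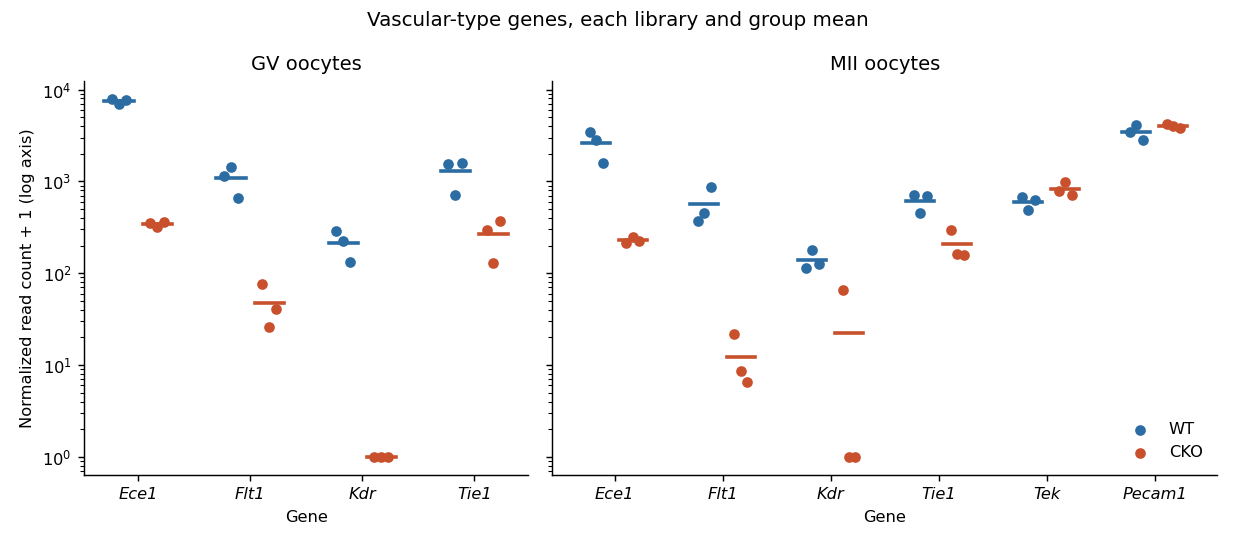
Normalized read count plus 1 (log axis) of each gene with a value, at GV (left) and MII (right), with 1 point per library, WT in blue and CKO in orange, and a bar at the group mean. The CKO points of Ece1, Flt1, Kdr and Tie1 lie below all WT points at both stages, while the CKO points of Tek and Pecam1 lie level with or above the WT points.

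The annotated promoters of Ece1, Flt1, Kdr, Tie1 and Tek are shown as a description. Endothelial promoters are known for binding sites of ETS-family factors, whose core is GGAA. Only the forms CCGGAA and CAGGAA of this core were searched, on both strands, and matches are in capitals. GGAA with other bases before it was not searched or marked. Windows ran from 250 bases before to 50 bases after each RefSeq start (build GRCm38.p6). Of the 9 genes, 8 had a window, and none was used for Pecam1. Either form was found in 41.4% of all 32851 windows of this length. Sequences read 5′ to 3′ on the strand of the gene.
Ece1 (chr4:137861987-137862286, plus strand): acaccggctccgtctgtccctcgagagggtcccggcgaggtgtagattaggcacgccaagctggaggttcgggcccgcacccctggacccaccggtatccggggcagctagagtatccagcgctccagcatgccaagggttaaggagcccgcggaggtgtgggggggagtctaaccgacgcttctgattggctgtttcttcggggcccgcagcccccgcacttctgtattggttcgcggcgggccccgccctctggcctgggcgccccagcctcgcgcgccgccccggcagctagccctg
Flt1 (chr5:147725962-147726261, minus strand): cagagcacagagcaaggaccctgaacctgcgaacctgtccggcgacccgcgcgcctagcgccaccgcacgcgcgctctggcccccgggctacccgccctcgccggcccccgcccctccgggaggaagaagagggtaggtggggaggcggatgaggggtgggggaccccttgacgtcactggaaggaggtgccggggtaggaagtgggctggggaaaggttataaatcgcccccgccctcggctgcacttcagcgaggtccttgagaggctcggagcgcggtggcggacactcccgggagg
Kdr (chr5:75978406-75978705, minus strand): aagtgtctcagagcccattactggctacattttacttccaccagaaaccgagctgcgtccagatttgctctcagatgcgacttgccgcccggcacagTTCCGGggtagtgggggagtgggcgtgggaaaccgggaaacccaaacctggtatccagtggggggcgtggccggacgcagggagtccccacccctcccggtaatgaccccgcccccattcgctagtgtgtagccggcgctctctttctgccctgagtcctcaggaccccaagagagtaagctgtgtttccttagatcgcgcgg
Tie1 (chr4:118489800-118490099, minus strand): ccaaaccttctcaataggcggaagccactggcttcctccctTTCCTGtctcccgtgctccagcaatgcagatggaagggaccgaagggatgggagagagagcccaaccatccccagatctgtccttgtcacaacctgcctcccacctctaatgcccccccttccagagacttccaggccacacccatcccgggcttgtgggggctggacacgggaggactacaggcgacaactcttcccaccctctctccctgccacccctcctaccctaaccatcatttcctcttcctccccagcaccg
Tek (chr4:94739039-94739338, plus strand): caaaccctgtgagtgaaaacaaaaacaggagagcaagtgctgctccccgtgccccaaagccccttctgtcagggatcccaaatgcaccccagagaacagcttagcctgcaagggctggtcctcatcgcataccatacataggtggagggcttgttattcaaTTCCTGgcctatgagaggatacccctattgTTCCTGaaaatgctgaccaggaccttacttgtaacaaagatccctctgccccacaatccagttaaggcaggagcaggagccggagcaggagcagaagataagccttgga
The Ece1 window shown is the first of its 4 annotated starts, and a match was found only at the fourth of these, 20 bases before the start. Flt1 had no match to either form, though its window holds GGAA with other bases before it. Kdr had 1 match to CCGGAA, on the opposite strand 153 bases before the start, and Tie1 had 1 match to CAGGAA, on the opposite strand 209 bases before it. Tek had 2 matches to CAGGAA, on the opposite strand 89 and 59 bases before the start. Any part of such sites in the differences between genotypes was not tested. The TAATTG and TAATTA elements of the oocyte factor NOBOX, found in 8.0% and 5.29% of all windows, matched in none of the windows shown. Which start the oocyte uses was not measured, and a match is a run of letters, not a bound site.

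Over all 20388 genes tested by limma at MII, 202 (0.991%) were lower and 106 (0.520%) higher in CKO at an adjusted p under 0.05, with a median log2 difference of -0.11. By limma 3259 had an unadjusted p under 0.05. Ece1 and Flt1 were 2 of the 202, and Kdr, Tie1, Tek and Pecam1 did not pass the threshold. Since that contrast was in view when the genes were chosen, nothing is read from this count. The call of both genes was lost without WT replicate 1, without WT replicate 2 and without any single CKO library, when 0 of the 6 genes passed and 0 to 8 of all genes did. The 4 genes lower in CKO were among the 12.0% of tested genes in which every CKO library lay below every WT library, and Tek was among the 10.4% with every CKO library above. In the authors' deposited table for MII, 6.45% of genes were more than 2-fold lower at an adjusted p under 0.05, and Ece1, Flt1 and Tie1 were 3 of these. At GV the spacing of the authors' adjusted p-values implies 21462 tested genes. On an unadjusted p under 0.05 and a change over 2-fold, the authors' deposited table marked 16.2% of these in either direction, 6.42% as higher and 9.75% as lower, with Ece1, Flt1, Kdr and Tie1 among the lower.

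**Figure D2:**
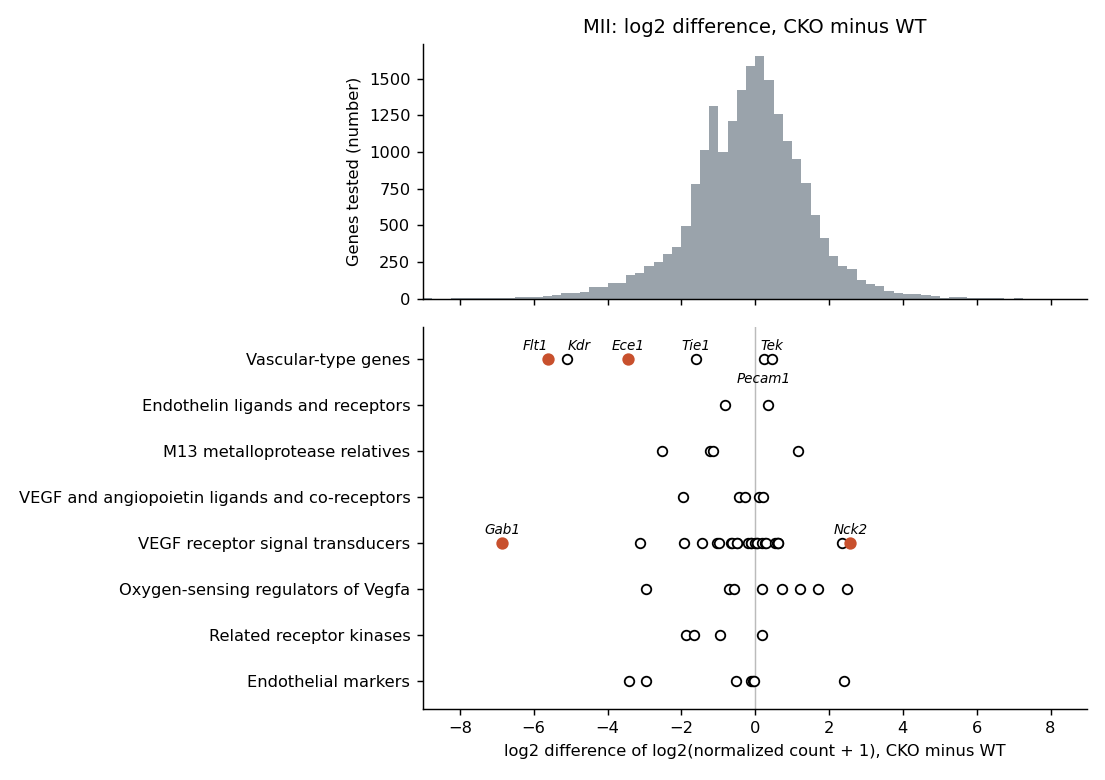
Top, the number of tested genes at MII by log2 difference of log2(normalized count + 1), CKO minus WT, and bottom, the same difference for the 6 vascular-type genes and for related gene lists, 1 circle per gene, filled where the adjusted p was under 0.05. Ece1 and Flt1 are filled among the vascular-type genes, and Gab1 and Nck2 among the receptor signal transducers. The vascular-type genes were chosen with this contrast in view, so nothing is read from which of them are filled.

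Ratios within a library, which do not depend on how libraries were scaled, are given as a description. The denominators, Tek and Pecam1, were not lower in CKO at MII. Lower ratios in CKO thus follow from the differences already given. Tie1 and Tek, the 2 receptors of the angiopoietin system, were at nearly equal counts in controls, with Tie1 to Tek ratios of 1.05, 0.914 and 1.11 in WT replicates 1, 2 and 3 at MII. In CKO replicates 2, 3 and 4 the ratio was 0.384, 0.164 and 0.224, with no overlap. Ece1 to Pecam1 ratios were 1.001, 0.691 and 0.554 in WT and 0.0502, 0.0621 and 0.0595 in CKO. The CKO ratios were thus close to each other, and each lay far below the lowest WT ratio.

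Per kilobase of annotated exon, the order of levels in WT eggs was Pecam1, Ece1, Tie1, Tek, Flt1 and Kdr. The normalized count per kilobase was 833 ± 148 for Pecam1, 540 ± 196 for Ece1, 135 ± 32.0 for Tie1, 126 ± 19.9 for Tek, 51.5 ± 24.98 for Flt1 and 23.4 ± 5.83 for Kdr (SD, n = 3 each). The libraries of Pecam1 and Ece1 overlapped, as did those of Tie1 and Tek, while Ece1 lay above Tie1, Tek above Flt1 and Flt1 above Kdr with no overlap of WT libraries. In CKO eggs Pecam1 stood at 965 ± 51.6 and Tek at 174 ± 29.6, followed by Ece1 at 47.3 ± 3.93, Tie1 at 45.1 ± 17.6, Kdr at 3.64 ± 6.31 and Flt1 at 1.03 ± 0.749 (SD, n = 3 each). Ece1 thus stood near Pecam1 in WT eggs and near Tie1 in CKO eggs. The place of Kdr above Flt1 in CKO eggs rests on replicate 2 alone, as Kdr was at 0 in CKO replicates 3 and 4. At GV the WT order was Ece1 at 1561 ± 102 per kilobase, Tie1 at 283 ± 112, Flt1 at 98.5 ± 35.6 and Kdr at 35.9 ± 13.3 (SD, n = 3 each). Lengths are unions of annotated exons, and an oocyte isoform that uses fewer exons would have a higher true level per kilobase.

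Markers of endothelium other than these receptors were mostly low or without a value. Of 26 such markers, 9 had values at MII and 17, among them Cdh5 and Emcn, were not analysed here. Their summed level was 754 to 1239 normalized counts in WT libraries and 408 to 1110 in CKO libraries, with overlap. Most of it was Erg, an ETS-family transcription factor, with a WT mean of 719 ± 333 and a CKO mean of 702 ± 326 (SD, n = 3 each), followed by Plvap, a protein of endothelial fenestrae. Plvap had a WT mean of 109 ± 92.6 and a CKO mean of 62.1 ± 16.7 (SD, n = 3 each). The other 7 had WT means under 100. The defining endothelial gene Vwf, which encodes von Willebrand factor, was at 18.3 and 61.0 in WT replicates 1 and 2 and at 0 in WT replicate 3 and every CKO library. Dll4, Esm1 and Sox17 were at or near 0 in WT, and Sox7 was at 0 in every WT library. Of the 7 markers tested by limma none passed the threshold and 0 had an unadjusted p under 0.05. Limma-voom called 0, and 0 had an adjusted p under 0.05 in the authors' deposited table, whose mark at an unadjusted p covered Vwf as lower. Their median log2 difference was -0.11, as over all genes.

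**Figure D3:**
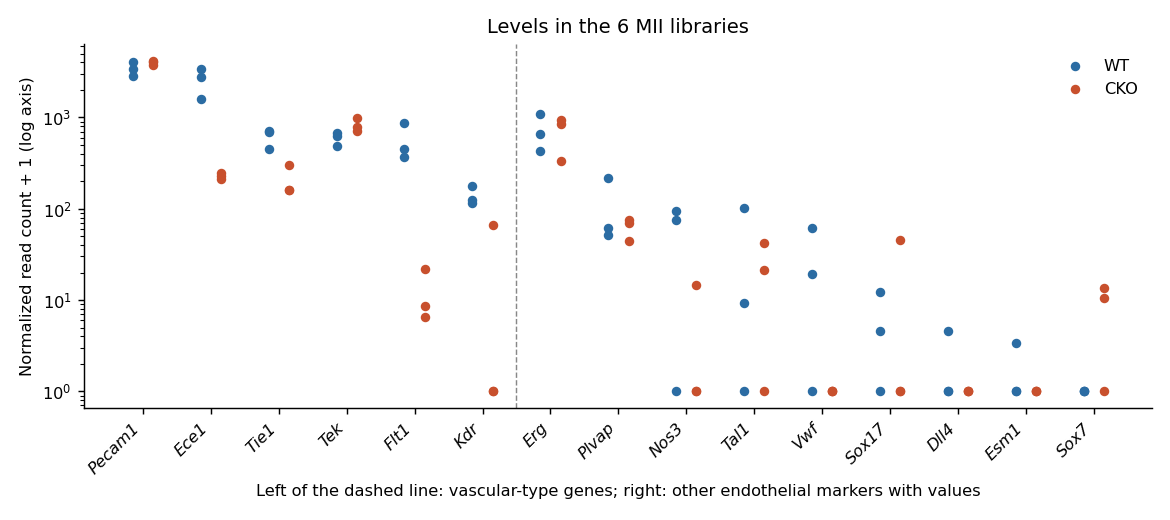
Normalized read count plus 1 (log axis) in the 6 MII libraries, WT in blue and CKO in orange, for the 6 vascular-type genes (left of the dashed line) and the 9 other endothelial markers with values (right). Apart from Erg and Plvap, the other markers have WT means under 100, and several are at 0 in 1 or more WT libraries.

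At GV, 1 of the 26 endothelial markers was in the authors' table, beside 16.2% of all genes. Nos3, the endothelial nitric oxide synthase, was at 154, 236 and 201 normalized counts in WT replicates 1, 2 and 4, and at 0, 2.32 and 0 in CKO replicates 1, 2 and 4. The authors' deposited table gave it a log2 fold change of -7.89 and an adjusted p of 6.88e-11. At MII Nos3 was at 73.7, 93.3 and 0 in WT and at 13.8, 0 and 0 in CKO, so the groups overlapped there (adjusted p = 0.506 by limma). As with Kdr at GV, nearly no signal was left in CKO.

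Markers of other cells that could adhere to oocytes were also read. Of 11 theca, stroma and pericyte markers, 3 had values at MII, and their summed level was 30.5 to 100 in WT and 17.9 to 95.0 in CKO. At GV the authors' table held 2 of the 11, both lower in CKO, beside 9.75% of all genes marked lower there. Pdgfra was at 174, 21.8 and 32.3 in WT replicates 1, 2 and 4 and at 3.41, 0 and 0 in CKO, and Col1a2 was at 7.85, 16.4 and 23.6 in WT and at 0 in all 3 CKO libraries. Of 14 cumulus and granulosa markers, 12 had values at MII, summing to 2927 to 5212 in WT and 3448 to 4375 in CKO. Most of each sum was Cyp19a1 and Nr5a2. In 4 of these markers (Fshr, Inhba, Nr5a2 and Ptgs2) every CKO library lay above every WT library, beside 10.4% of all tested genes. In 0 every CKO library lay below, beside 12.0%. Fshr was at 34.2, 4.79 and 0 in WT replicates 1, 2 and 3 and at 157, 96.2 and 90.9 in CKO replicates 2, 3 and 4. The median log2 difference was 0.51, beside -0.11 over all genes. None of the 11 that were tested passed the threshold by limma, and limma-voom called 0. By limma 3 had an unadjusted p under 0.05, beside 3259 of all 20388 genes tested. None had an adjusted p under 0.05 in the authors' deposited table, where Fshr and Ptgs2 were marked as higher at an unadjusted p. Of 13 blood and platelet markers, 4 had values at MII, summing to 1118 to 1925 in WT and 194 to 224 in CKO, and C1qb made up most of it in every library. The other markers did not share its difference. Cd68, a macrophage gene, had means of 31.5 (WT) and 58.6 (CKO), and Gp1ba of 2.39 and 5.51, both with overlap. Limma called 1 of the 3 tested, C1qb, beside 1.51% of all genes. The median log2 difference of the 3 was 0.37, beside -0.11 over all genes. C1qb encodes a chain of complement C1q, and it fell. Its WT mean was 1482 ± 428 and its CKO mean 147 ± 42.7 (SD, n = 3 each), a log2 difference of -3.32 with an SE of 0.45 (adjusted p by limma 0.0128). The call was lost when any library other than WT replicate 3 was left out, with adjusted p by limma of 0.0726 to 0.132. The pan-leukocyte gene Ptprc was at 0 in every CKO library and 2 WT libraries and at 3.59 in WT replicate 3. At GV the authors' table held 2 of the 13, beside 16.2% of all genes. C1qb was also lower at GV, where the WT mean was 1869 ± 174 and the CKO mean 807 ± 68.2 (SD, n = 3 each). Cd68 was higher there, with means of 94.7 ± 13.3 and 270 ± 84.1 (SD, n = 3 each). The part of such cells in the values of the vascular-type genes was not tested.

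The rest of the endothelin system had little to read. Of 5 ligand and receptor genes, Edn1 and Ednrb had values at MII and neither passed the threshold. Edn1, the ligand precursor that ECE1 cuts, was at 311, 202 and 433 normalized counts in WT replicates 1, 2 and 3 and at 178, 93.7 and 295 in CKO replicates 2, 3 and 4. The groups overlapped (log2 difference -0.82, SE 0.62, adjusted p = 0.57 by limma). Ednrb, a receptor, was at 516, 887 and 112 in WT and at 463, 392 and 574 in CKO, and varied more among controls than between genotypes. None of the 4 relatives of ECE1 in the same metalloprotease family with values (Mmel1, Ecel1, Kel and Phex) had a WT mean of 100 normalized counts. No gene of either list was in the GV table, and at MII 0 of the 6 genes had an unadjusted p under 0.05.

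Ligands and co-receptors of the growth factor receptors showed no call at MII. Of 10 genes listed, 6 had values and 5 were tested, of which none passed by limma, 0 had an unadjusted p under 0.05, 0 were called by limma-voom and 0 had an adjusted p under 0.05 in the authors' deposited table. Nrp1, a co-receptor, had means of 2472 ± 344 (WT) and 2048 ± 474 (CKO) normalized counts, and Ptprb, the phosphatase that acts on TEK, of 1137 ± 238 (WT) and 1217 ± 214 (CKO; SD, n = 3 each). Angpt2, a ligand of TEK, was in the GV table at 217, 368 and 365 in WT replicates 1, 2 and 4 and at 129, 115 and 210 in CKO. It was the 1 gene of the 10 marked there, beside 9.75% of all genes marked lower at GV. Every CKO library lay below every WT library, which selection by p and fold favours. The adjusted p in the authors' deposited table was 0.0747. Of 8 oxygen-sensing regulators of Vegfa none passed by limma, with 1 at an unadjusted p under 0.05, 0 called by limma-voom and 1, Hif1an (higher), at an adjusted p under 0.05 in the authors' deposited table. Of 5 related receptor kinases, 4 had values at MII and none passed by limma, with 0 at an unadjusted p under 0.05. Limma-voom called 0, and 0 had an adjusted p under 0.05 in the authors' deposited table. Kit, the receptor by which oocytes respond to granulosa cells, had the highest counts of these kinases, at 157399, 129918 and 56508 in WT replicates 1, 2 and 3 and 108395 to 145517 in CKO. At GV 1 of the 5, Pdgfra (values given above), was marked lower, beside 9.75% of all genes.

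Among 26 genes that carry signals from these receptors, 25 were tested at MII, of which Nck2 rose, Gab1 fell and 23 did not pass the threshold, beside 1.51% of all genes called in either direction. Limma-voom called 1 (Gab1), and 8 of the 25 had an unadjusted p under 0.05 by limma, beside 3259 of all 20388 genes tested. Nck2, Gab1 and Yes1 were the 3 with an adjusted p under 0.05 in the authors' deposited table. Gab1 and Yes1 were lower there, beside 6.45% of genes more than 2-fold lower at that threshold. Yes1, a SRC-family kinase gene, was at 827, 1215 and 2660 normalized counts in WT replicates 1, 2 and 3 and at 173, 732 and 384 in CKO replicates 2, 3 and 4. Its CKO libraries all lay below its WT libraries, as in 12.0% of all tested genes. The log2 difference of Yes1 was -1.92 (SE 0.61, adjusted p = 0.153 by limma). Gab1, a docking protein for receptor tyrosine kinases, was at 114, 68.8 and 193 normalized counts in WT replicates 1, 2 and 3 and at 0 in every CKO library. Against a floor of 3 reads per CKO library it was at least 23.7-fold lower (adjusted p = 0.0307 by limma). At GV Gab1 was at 534, 119 and 317 in WT replicates 1, 2 and 4 and at 14.5, 0 and 19.1 in CKO. Nck2, an SH2 and SH3 adaptor, was at 88.4, 126 and 97.9 in WT replicates 1, 2 and 3 and at 606, 638 and 616 in CKO replicates 2, 3 and 4 at MII. The libraries within each genotype lay close together (log2 difference 2.58, SE 0.49, adjusted p = 0.0372 by limma). Nck2 was also higher at GV, with a WT mean of 448 ± 39.7 and a CKO mean of 1017 ± 179 (SD, n = 3 each). Both calls at MII were lost without WT replicate 1 or 2 or any 1 CKO library, with adjusted p by limma of 0.101 to 0.144 for Gab1 and 0.106 to 0.187 for Nck2. The GV table held 4 of the 26 genes, beside 16.2% of all genes, with Nck2 higher and Gab1, Pxn and Sh2d2a lower. Pxn, which encodes the focal adhesion protein paxillin, had a GV mean of 6457 ± 565 in WT against 2736 ± 565 in CKO (SD, n = 3 each), with an adjusted p of 5.94e-09 in the authors' deposited table, and at MII its log2 difference was -0.97 (SE 0.35, adjusted p = 0.217 by limma). Sh2d2a, an adaptor that binds KDR, was at 11.3, 190 and 26.1 in WT and at 0 in every CKO library at GV. At MII it was at 107, 9.57 and 0 in WT and at 17.9, 0 and 57.9 in CKO, with overlap and a log2 difference of -0.01 (SE 2.07). The median log2 difference of the 25 genes at MII was -0.10, beside -0.11 over all genes.

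The genes whose MII profile was most like that of each of the 3 vascular-type genes with the highest WT counts were sought among 12128 genes, by the root-mean-square difference of centred log2 values over the 6 libraries. For Ece1 the nearest was C1qb (0.20), followed by P4ha1 (0.32), a subunit of collagen prolyl hydroxylase, and Zc3h6 (0.32), a CCCH zinc finger gene. P4ha1 had means of 14756 ± 7632 (WT) and 1381 ± 551 (CKO) normalized counts, and Zc3h6 of 14980 ± 2760 (WT) and 1463 ± 298 (CKO; SD, n = 3 each). For Tie1 the nearest were Arid5a (0.19), Dapp1 (0.22) and Pld6 (0.23), and for Pecam1 they were Nfya (0.08), C2cd3 (0.09) and Anxa6 (0.09). The likeness is a description over these 6 libraries.

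**Figure D4:**
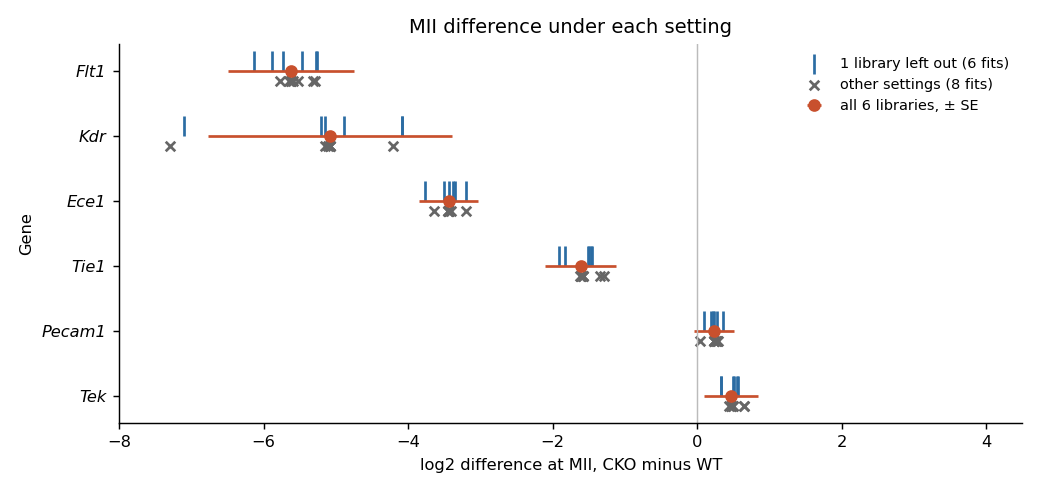
The log2 difference at MII, CKO minus WT, of the 6 vascular-type genes with all 6 libraries (orange, with its SE), with 1 library left out (blue ticks) and under 8 other settings (grey crosses). Flt1, Kdr, Ece1 and Tie1 stay below 0 and Pecam1 and Tek above 0 under every setting run, and the spread is widest for Kdr, from -7.30 to -4.08.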

How the data were processed

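The authors deposited 1 table per stage, with log10(normalized count + 1) per gene and library and, per the file headers, a mean signal (mean normalized count), a log2 fold change and its error, a score (the 2 divided), p-values and adjusted p-values. The choice of aligner, strand setting and genome build is not given in the sources used here. The GV table held only genes that the authors marked as different, all with an unadjusted p under 0.05 and over 2-fold. Normalized counts were 10 to the power of the value, minus 1. Each was a whole multiple of 1 unit per library (100% within 0.05), which gave the reads.

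At MII, limma 3.58.1 (R 4.3.3) was fitted, trended prior variance on, to genes with a mean normalized count of at least 1, as log2 of the count plus 1, with genotype as the term and Benjamini-Hochberg adjustment over 20388 genes. At GV no test was fitted. Exon lengths and the check for overlapping genes came from GENCODE M21. No exon of another annotated gene overlapped the 6 genes. Members and lists were chosen with earlier results of these data known. Genes named were Lsm14b, the members, list genes past the threshold or in the GV table (up to 4 with values per list and stage), the 3 highest endothelial markers, and the 3 most alike genes. Other list genes named, Yes1 among them, were chosen after their values were seen.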

Additional observations from a re-analysis of the deposited data

How the results depend on the processing

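At MII, 14 alternatives were run: a pseudocount of 0.1, no filter, a minimum mean of 10, library size alone, limma-voom on recovered reads, array weights, thinned reads, a replicate block and each library left out. No sign changed for Ece1, Flt1, Kdr, Tie1, Tek or Pecam1. These genes were chosen with this contrast in view, so nothing is read from how many of them were called under any setting. With array weights, which gave WT replicate 3 a weight of 0.198, 1297 genes were higher and 1893 lower, 4 of the 6 vascular-type genes were called (Ece1, Flt1, Kdr and Tie1) and 6 list genes. Limma-voom called 91 genes higher and 80 lower, against 106 and 202 in the limma fit, 1 vascular-type gene (Ece1) and 1 list gene (Gab1). List genes are counted here over the 6 lists of related genes, without the cell type markers. Of those markers limma-voom called C1qb (adjusted p = 0.0499). The replicate block by limma, in which only numbers 2 and 3 occur in both groups, called 0 genes higher and 0 lower, 0 vascular-type genes and 0 list genes, with 1496 genes at an unadjusted p under 0.05, and gave Lsm14b -3.63 (adjusted p = 0.587). Deviations of same-numbered libraries from their group means had r = 0.0133 and -0.101 at MII. At GV, over the selected genes alone, r was -0.012, 0.016 and 0.001. With so few pairs these values do not settle whether libraries were paired. With 1 library left out, limma called 0 to 437 genes higher and 0 to 551 lower (2313 to 4399 at an unadjusted p under 0.05), 0 to 2 vascular-type genes and 0 to 3 list genes, and Lsm14b ranged from -3.67 to -3.54, its adjusted p reaching 0.0633 when WT replicate 2 was left out. The upper counts were those without WT replicate 3. Leaving out any other library gave at most 8 calls, and the cause was not tested. At GV the difference of mean logs stayed between -4.50 and -4.39 for Ece1, -4.98 and -4.01 for Flt1 and -2.71 and -1.87 for Tie1. For Kdr it went from -7.67 to -10.98 with a pseudocount of 0.1. With reads thinned to equal size factors at MII, the log2 difference was -3.45 for Ece1, -5.29 for Flt1, -5.08 for Kdr and -1.58 for Tie1. Few reads, 0 to 47, stand behind each value of Flt1 and Kdr in CKO eggs.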
